A study of Mus musculus with 18 samples.

Results

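The genes described are the nuclear genes for subunits of the mitochondrial respiratory chain and of ATP synthase, taken by symbol from a table of mouse brain RNA. A symbol was taken if it began with Nduf and a subunit letter (a, b, c, s or v) with a number, with Uqcr, with Cox and a number from 4 to 8, or with Atp5, or if it was Sdha to Sdhd or Cyc1. Of 91 such symbols, 6 ended in -ps with or without a number and were left out, which gave 85 subunit genes of 48440 genes in the table. By complex they were 35 genes of complex I, 4 of complex II, 9 of complex III, 20 of complex IV and 17 of complex V. Ndufa4 and Ndufa4l2 were placed in complex IV. 4 of the 85 genes are better described as associated than as structural subunits: Cox7a2l, Ndufa4l2, Atp5s and Atp5sl. Cox7a2l was counted in complex IV, and Atp5s and Atp5sl were counted in complex V.

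Poly(A) RNA of brain was sequenced in 18 libraries in 3 groups of 6: WT with control diet (WT control), 5xFAD with control diet (5xFAD control) and 5xFAD with fucose diet (5xFAD fucose). Mice were on their diet for 1 month. 5xFAD is a model of amyloid deposition in which human transgenes with familial Alzheimer mutations are expressed from mouse Thy1 elements, mainly in neurons. Fucose is a monosaccharide found at the ends of many protein-linked glycans. WT mice on fucose are not analysed here, so a diet effect in WT cannot be set beside that in 5xFAD. Region, sex, age and batch are not in the labels, which also do not say that each library came from a separate animal, so p-values measure the spread between these libraries, which may be technical. In bulk tissue, fewer cells of a type and less RNA per cell cannot be told apart.

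The respiratory chain passes electrons from NADH and succinate to oxygen through complexes I to IV and pumps protons across the inner mitochondrial membrane, and complex V, the ATP synthase, uses the proton gradient to make ATP. Most subunits are encoded in the nucleus and imported, while a core set is encoded by mitochondrial DNA, so each complex except II is assembled from both genomes. Neurons depend heavily on this pathway for synaptic transmission, and transcription factors such as NRF1, GABPA (an ETS factor, also called NRF2) and YY1 are known regulators of many of its nuclear genes.

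The gene starts of the subunit genes were searched for the letters those factors are known to bind, and 1 promoter of each complex is printed because it holds such a match in the 250 bases before the start. The sequences are from RefSeq, build mm10 (GRCm38.p6), written 5′ to 3′ on the strand of the gene. Capitals mark the matches: the NRF1 half-site GCGCATGC (in Ndufa8 and Sdhb on the opposite strand, and in Cox6a1 on both strands, where the overlapping half-sites form the full palindromic site), the ETS site CCGGAAGT (in Uqcrh, on the opposite strand) and the YY1 site AAGATGGC (in Atp5j).
Ndufa8, complex I, chr2:36049339-36049588, minus strand: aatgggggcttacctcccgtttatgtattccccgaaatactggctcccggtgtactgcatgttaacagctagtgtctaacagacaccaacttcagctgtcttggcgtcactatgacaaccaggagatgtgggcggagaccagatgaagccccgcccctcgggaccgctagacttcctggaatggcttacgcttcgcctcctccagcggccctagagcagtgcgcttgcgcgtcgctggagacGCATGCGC
Sdhb, complex II, chr4:140961021-140961270, plus strand: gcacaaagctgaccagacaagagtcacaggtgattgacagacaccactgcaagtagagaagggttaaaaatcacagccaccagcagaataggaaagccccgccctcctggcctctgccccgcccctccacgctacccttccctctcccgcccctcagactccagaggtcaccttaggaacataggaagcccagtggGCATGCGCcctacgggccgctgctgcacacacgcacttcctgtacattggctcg
Uqcrh, complex III, chr4:116075071-116075320, minus strand: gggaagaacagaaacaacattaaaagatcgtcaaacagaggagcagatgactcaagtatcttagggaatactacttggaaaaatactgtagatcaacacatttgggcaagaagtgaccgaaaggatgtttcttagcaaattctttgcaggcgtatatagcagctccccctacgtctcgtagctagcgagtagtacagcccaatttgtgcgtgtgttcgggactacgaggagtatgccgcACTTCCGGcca
Cox6a1, complex IV, chr5:115348959-115349208, minus strand: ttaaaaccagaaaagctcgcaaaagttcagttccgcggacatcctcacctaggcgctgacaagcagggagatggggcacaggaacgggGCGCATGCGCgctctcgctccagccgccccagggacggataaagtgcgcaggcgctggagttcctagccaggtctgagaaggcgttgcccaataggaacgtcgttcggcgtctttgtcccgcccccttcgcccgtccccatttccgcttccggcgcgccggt
Atp5j, complex V, chr16:84834977-84835226, minus strand: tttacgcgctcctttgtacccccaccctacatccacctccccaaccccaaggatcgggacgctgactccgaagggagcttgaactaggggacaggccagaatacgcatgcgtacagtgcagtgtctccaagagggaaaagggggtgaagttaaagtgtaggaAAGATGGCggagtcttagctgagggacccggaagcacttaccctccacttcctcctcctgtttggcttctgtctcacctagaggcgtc

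A promoter window of 300 bases, 250 before and 50 after the start, was on hand for 66 of the 85 subunit genes (71 windows, since 5 genes have 2) and for 27025 genes in all. The NRF1 half-site GCGCATGC, searched on both strands, was in 15.2% of the 66 genes and in 3.02% of the other genes. Among the other genes that were tested here it was in 5.12%. Either ETS form, CCGGAAGT or ACCGGAAG, which can overlap, was in 15.2% against 5.5% and 9.49%. Taken singly, CCGGAAGT was in 7.58% against 4.3% and 7.49%, and ACCGGAAG in 9.09% against 2.58% and 4.46%. Either YY1 form, AAGATGGC or ATGGCGGC, which can also overlap, was in 16.7% against 4.93% and 7.45%. At least 1 of these motifs was in 29 of 66 genes, which is 43.9%, against 12.4% of the other genes and 20% of the other genes that were tested here.

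General promoter letters were searched too. CCAAT was in 43.9% of subunit genes and 41.1% of other genes, and TATAAA was in 10.6% and 15.7% (9.44% of the other genes tested here). The windows of the subunit genes held more G and C (median 57.3%) than those of other genes (52.7%), and the part of base composition in the motif shares was not tested. The Atp5j window shares 247 bases with that of Gabpa, which lies on the opposite strand and encodes the ETS factor itself.

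The libraries held 31.45 to 44.23 M recovered reads (median 38.93 M), and the subunit genes took 1.17% to 1.64% of them. The values used are normalized counts, that is, gene counts divided by 1 size factor for each library. 84 of the 85 genes passed a filter on low counts and were tested with limma on log2(normalized count + 1). Cox8c, the testis isoform of subunit 8, had 0 reads in all 18 libraries, and 0 in a library allows up to 3 reads, or 2.66 to 3.72 normalized counts (counting error only). 3 libraries, 1 in each group, had little of the X-inactivation transcript Xist: WT control 4 with 11.7 normalized counts, 5xFAD control 5 with 6.60 and 5xFAD fucose 5 with 0, against at least 7251 in the others. Of cell type markers, 8 of 10 microglial genes and 1 of 8 astrocyte genes, Gfap, rose in 5xFAD control against WT control (limma adjusted p from 2.11e-10 to 0.0035), 3 of the 8 astrocyte genes had values below 0, and none of the marker genes was called between diets. Of all tested genes, 2.14% were called for 5xFAD control against WT control, 0% between diets and 2% for 5xFAD fucose against WT control. The 10 neuronal markers were all detected and none was called in any comparison. Their log2 fold changes were below 0 in 10 of 10 for 5xFAD control against WT control (median -0.12), in 6 of 10 for fucose against control diet (median -0.02) and in 8 of 10 for 5xFAD fucose against WT control (median -0.10), and their part in the subunit values was not tested.

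Set per kilobase of coding transcript, the subunit genes differed widely in level, and the most abundant ones came from complexes IV and V. Cox6a1, the main isoform of subunit 6a, had 31520 normalized counts per kb as a mean of 18 libraries, Cox8a, the main isoform of subunit 8, had 31306, Atp5b, the catalytic beta subunit of ATP synthase, had 30096, and Cox4i1, the main isoform of subunit 4, had 29935. In complex III the hinge protein gene Uqcrh was highest with 13201, in complex I the accessory subunit Ndufb9 with 9709 and in complex II the iron-sulfur subunit Sdhb with 5228. The median over constitutive subunit genes was 4724 per kb in complex I, 3870 in complex II, 7261 in complex III, 15140 in complex IV and 7948 in complex V. These levels depend on the transcript length chosen: with merged exons as length, the highest gene was the same in 2 of the 5 complexes, and Uqcr11, Sdha and Cox8a were highest in complexes III, II and IV.

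**Figure D1:**
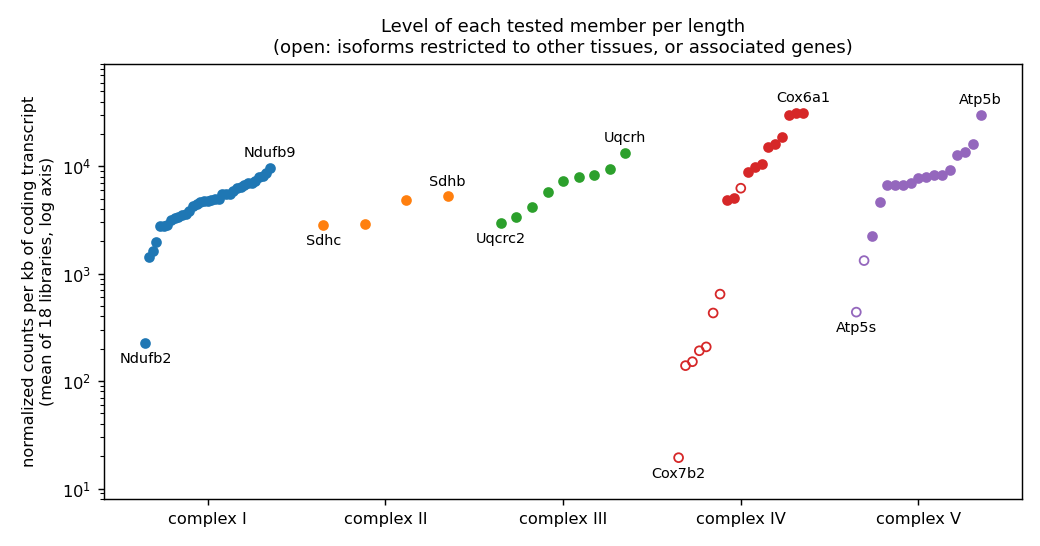
Mean level of each tested subunit gene over 18 libraries, in normalized counts per kb of coding transcript on a log axis, by complex. Filled points are constitutive subunits and open points are isoforms restricted to other tissues or associated genes; the lowest and highest gene of each complex are named, from Cox7b2 at 19.4 to Cox6a1 at 31520.

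Brain RNA held nearly only 1 isoform of each duplicated complex IV subunit. As a share of the family's level per kb, Cox4i1 made up 99.35% to 99.74% in the 18 libraries, Cox6a1 96.9% to 98.9%, Cox6b1 96.35% to 98.5%, Cox7a2 97.8% to 98.9% and Cox8a 98.6% to 99.96%. Their relatives known from heart and muscle, lung or testis were present at low level. Cox6b2, the testis isoform of subunit 6b, had the highest median share among them, 2.61%, Cox6a2, the heart and muscle isoform of subunit 6a, had 1.99%, and Cox4i2, best known in lung, had 0.474%. Ndufa4 likewise made up 98.3% to 99.2% of the pair with Ndufa4l2, a relative induced by low oxygen. No share was tested between groups.

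Subunit c of ATP synthase, which forms the membrane ring that rotates, is made from 3 genes that encode the same mature protein. Atp5g3 was the main one with a median share of 63.8%, followed by Atp5g2 with 26.95% and Atp5g1 with 9.56%. The share of Atp5g1 ranged from 5.28% to 10.7%. Its normalized count varied 3.10-fold over the libraries, from 2711 in 5xFAD fucose 6 to 8403 in WT control 2, the widest range of any constitutive subunit gene. The next were Ndufa3 with 2.05-fold, Atp5k with 2.04-fold and Ndufa1 with 2.03-fold.

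Most subunit genes ranged together over the libraries. Between the highest and the lowest of the 18 libraries the normalized count varied less than 1.5-fold in 19 of 83 genes, 1.5- to 2-fold in 54 and at least 2-fold in 10, leaving out Cox7b2, which was at 0 in 5xFAD control 4 and 5. The steadiest was Sdha, the flavoprotein of complex II, with 1.16-fold. In 54 of 84 genes the highest library was 5xFAD control 5, in 12 it was WT control 2 and in 9 WT control 4. The lowest library was 5xFAD fucose 6 in 49 genes, 5xFAD fucose 2 in 16 and WT control 6 in 7.

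A score of the subunit genes was taken for each library as the mean log2 value of the 84 genes less its mean over 18 libraries. In WT control libraries 1 to 6 it was -0.07, 0.22, -0.03, 0.21, 0.08 and -0.19. In 5xFAD control libraries 1 to 6 it was -0.02, -0.00, 0.04, -0.10, 0.29 and 0.16. In 5xFAD fucose libraries 1 to 6 it was 0.02, -0.24, -0.14, 0.01, 0.08 and -0.29. The 3 groups overlapped, and the lowest 3 of the 18 were fucose libraries 6 and 2 and WT control 6. The 3 libraries with little Xist were the highest or the second highest of their group, and the part of Xist status in the score was not tested.

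The group means of the score were 0.04 ± 0.16 in WT control, 0.06 ± 0.14 in 5xFAD control and -0.10 ± 0.15 in 5xFAD fucose (SD, n = 6 each). Fucose was thus 0.16 log2 units below control diet within 5xFAD, a difference about as large as the SD of a group, and it was -0.11 without 5xFAD control 5 and -0.19 without 5xFAD fucose 5. 5xFAD control was 0.02 above WT control, and -0.02 without 5xFAD control 5. No test was made of the score.

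**Figure D2:**
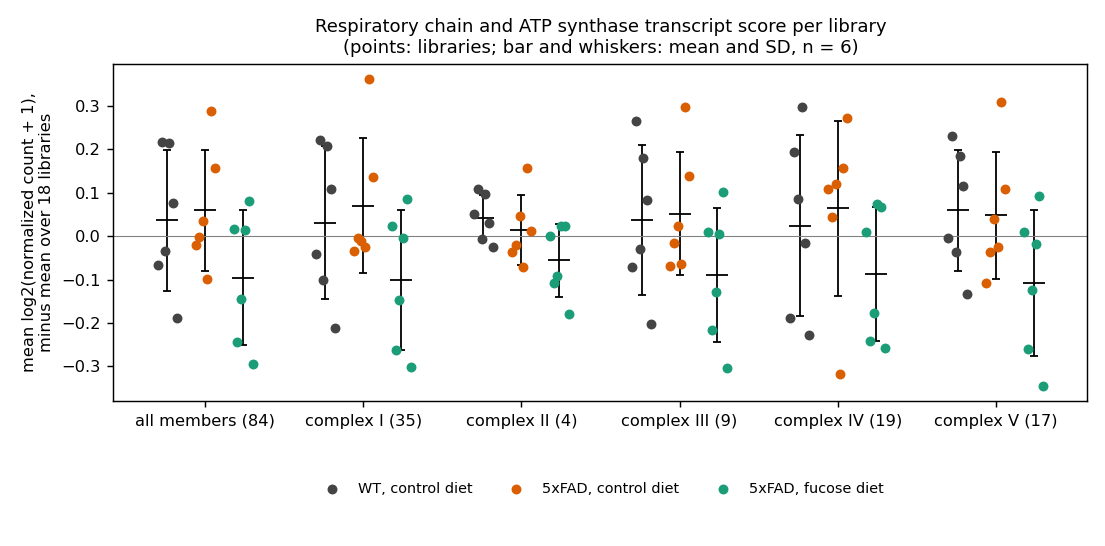
Score of the subunit genes in each library, for all 84 tested genes and for each complex, as the mean of log2(normalized count + 1) less the mean over 18 libraries. Points are libraries and whiskers mean and SD (n = 6); the groups overlap in every complex, with 5xFAD fucose 6 lowest in complexes I, II, III and V.

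The complexes followed one another. The score of complex I correlated with that of all 84 genes at Pearson r = 0.976 (Spearman 0.948) over the 18 libraries after centring on group means, complex III at 0.988 (0.986), complex V at 0.963 (0.948), complex II at 0.906 (0.911) and complex IV at 0.844 (0.86). Each complex is part of the whole score, and all scores share library and depth, so these are descriptions. In complex IV the low point was 5xFAD control 4 with -0.32, and in this library Cox6b2, Cox7a1 and Cox8b were the lowest of their group and Cox7b2 was at 0.

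Single genes were alike in how they varied within groups. The mean correlation between pairs of subunit genes, after centring on group means, was 0.609 over 18 libraries, against 0.000416 for all tested genes and 0.71 for the 79 cytosolic ribosomal protein genes. It was 0.713 among the 74 constitutive structural genes and 0.112 among the 10 tested genes that are restricted isoforms or associated, a split made after the values were seen. By complex it was 0.735 in complex I, 0.536 in complex III, 0.621 in complex V, 0.465 in complex IV and 0.255 in complex II. 65 of 84 genes correlated above 0.8 with the mean of the other subunit genes.

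A few constitutive genes did not follow. Uqcrc2, a core protein of complex III, correlated with the mean of the others at r = -0.521, Sdha at -0.396 and Ndufb2, an accessory subunit of complex I, at -0.378. Uqcrc2 shares 19.75% of its exon bases with Pdzd9. Atp5a1, the alpha subunit of ATP synthase, was at 0.372. All 4 have coding transcripts of over 1500 bp, while most subunit transcripts are short. For Ndufb2 the length used, 2413 bp, is a median over its annotated coding transcripts. Its level of 224 per kb was the lowest of complex I, where the median was 4724.

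The genes outside the list whose log2 values followed the subunit mean most closely, by Pearson r over 18 libraries after centring, were Chchd2 at 0.963, Vamp2 at 0.961, Chmp4b at 0.957, Cfl1 at 0.957 and Pomp at 0.955. Chchd2 encodes a small mitochondrial protein, Vamp2 a synaptic vesicle SNARE, Chmp4b an ESCRT-III subunit, Cfl1 the actin-severing protein cofilin and Pomp a proteasome assembly chaperone. Larger lists moved with the score as well. Cytosolic ribosomal protein genes, 79 of them, had a score that correlated with it at r = 0.93 (Spearman 0.917) after centring and 0.869 (0.886) before, and 0.834 before centring without the 2 libraries farthest from the median. Within WT control, 5xFAD control and 5xFAD fucose r was 0.939, 0.904 and 0.945. Genes outside both lists with coding transcripts under 1 kb had a score that followed it at 0.898 (0.905) after centring and 0.765 (0.717) before. Without the 2 farthest libraries it was 0.686 before centring. Those with coding transcripts over 5 kb ran against it at -0.84 (-0.895) before centring, and -0.797 without the 2 farthest. The part of transcript length or RNA quality in these relations was not tested.

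**Figure D3:**
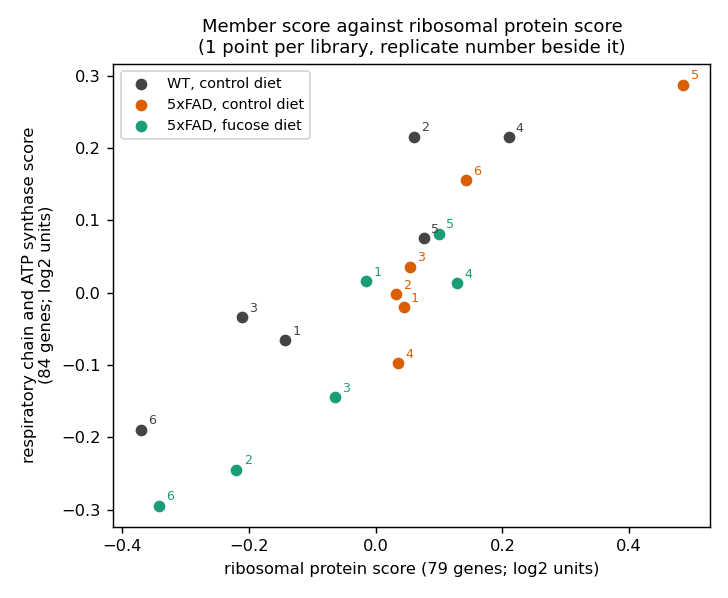
Score of the 84 subunit genes against the score of 79 cytosolic ribosomal protein genes, both in log2 units, 1 point per library with its replicate number. 5xFAD control 5 is highest on both axes, and WT control 6 has the lowest ribosomal score, -0.37, beside a subunit score of -0.19.

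Other lists of the pathway were set beside the score in the same way. Over the 18 libraries without centring, the score of further nuclear subunits and electron carriers correlated at r = 0.932 (Spearman 0.882), that of assembly factors at r = 0.859 (Spearman 0.835), that of 13 subunits encoded by mitochondrial DNA at 0.451 (0.37), that of tricarboxylic acid cycle enzymes at -0.00847 (-0.0774) and that of regulators of mitochondrial biogenesis at -0.429 (-0.292). Without the 2 farthest libraries, the value for the mitochondrially encoded subunits was 0.08, so that it rests on these libraries. Within groups the mean pairwise correlation of genes was 0.314 among mitochondrially encoded subunits, 0.106 among cycle enzymes and 0.0841 among assembly factors.

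The first comparison asks whether subunit transcripts differ between 5xFAD and WT brain on control diet. No subunit gene was called higher or lower by limma at a false discovery rate of 0.05 (0 of 84), where 2.14% of all tested genes were called. The smallest adjusted p was 0.475. 0 of the 84 had an unadjusted p under 0.05 in either direction, against 6.72% of all tested genes higher and 4.72% lower. In 0 of 84 did the libraries of 1 group all lie above (1.8% of all tested genes) or all below (0.266%) those of the other. 31 of 84 had a log2 fold change below 0 (51.6% of all tested genes), and the median was 0.02, beside -0.01 over all tested genes. The number below 0 was 59 without 5xFAD control 5, 52 without WT control 6, 17 without WT control 2 and 19 without WT control 4. The 95% interval of the fold change lay within 1.5-fold in 76 of 84 genes, so for these genes a larger difference lies outside the interval.

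In complex I, which takes electrons from NADH, the log2 fold changes of 5xFAD control against WT control ran from -0.05 to 0.18. Ndufa2, an accessory subunit, had 2023, 2535 and 3168 normalized counts as lowest, median and highest in WT control and 2535, 2848 and 3776 in 5xFAD control. The groups overlapped, and the log2 fold change of 0.18 ± 0.11 (SE) had a limma adjusted p of 0.563. Ndufv1, which binds NADH, differed by 0.05 ± 0.08, and Ndufs1, the largest iron-sulfur subunit, by 0.01 ± 0.06.

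Complex IV held the widest differences, in restricted isoforms with few reads. Cox8b, the heart and muscle isoform of subunit 8, had 3.94, 34.2 and 143 normalized counts as lowest, median and highest in WT control and 23.3, 104 and 162 in 5xFAD control. Its log2 fold change was 1.29 ± 0.65 (limma adjusted p = 0.475), and the groups overlapped. Cox7b2, the second isoform of subunit 7b, lay between 4.74 and 23.6 in WT control and between 0 and 15.1 in 5xFAD control. In complex V, Atp5a1 and Atp5b, the alpha and beta subunits of the catalytic head, differed by -0.00 ± 0.06 and -0.01 ± 0.06.

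The second comparison asks whether fucose alters these transcripts in 5xFAD brain. Again 0 of 84 subunit genes were called by limma, and 0% of all tested genes were called. The smallest adjusted p was 0.822. The values leaned 1 way: 77 of 84 genes had a log2 fold change below 0 (51% of all tested genes), with a median of -0.18 beside -0.00 over all tested genes, and 20 had an unadjusted p under 0.05 and were lower with 0 higher, where 2.92% of all tested genes were lower and 2.42% higher at that level. Genes outside the list with a mean of at least 1500 normalized counts, without ribosomal proteins, were split by coding transcript length. Below 0 were 85.53% of 76 under 700 bp, 88.27% of 699 from 700 to 1500 bp and 38.11% of 4403 longer ones. Subunit genes had 97.3%, 96.67% and 70.59%. At an unadjusted p under 0.05, 11 of the 76 and 77 of the 699 were lower. Among subunit genes these were 12 of 37 and 8 of 30. In 0 of the 84 were all 6 fucose libraries below all 6 control libraries (0.122% of all tested genes) or above them (0.0638%).

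That count of 20 depended on single libraries. It was 2 without 5xFAD control 5, 2 without 5xFAD fucose 2, 2 without 5xFAD fucose 6, 7 without 5xFAD fucose 3 and 9 without 5xFAD control 6. It was 31 without 5xFAD fucose 4 and 38 without 5xFAD fucose 5. Over all tested genes, 549 of 18808 were lower at an unadjusted p under 0.05, and this number moved too. In the same order, the fits above had 308 of 19043, 337 of 19045, 329 of 19016, 424 of 19046 and 413 of 19051. Without 5xFAD fucose 4 and 5 there were 806 of 19058 and 842 of 19035. The subunit genes are not independent of one another, as their correlation shows, so the count of 20 is no number of separate findings.

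By complex, the median log2 fold change of fucose against control diet was -0.18 in complex I, -0.07 in complex II, -0.17 in complex III, -0.23 in complex IV and -0.19 in complex V. 33 of 35, 3 of 4, 8 of 9, 17 of 19 and 16 of 17 genes were below 0. The 7 genes above 0 were Sdha, Ndufs1, Uqcrc2, Ndufb2, Atp5s, Ndufa4l2 and Cox7b2.

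**Figure D4:**
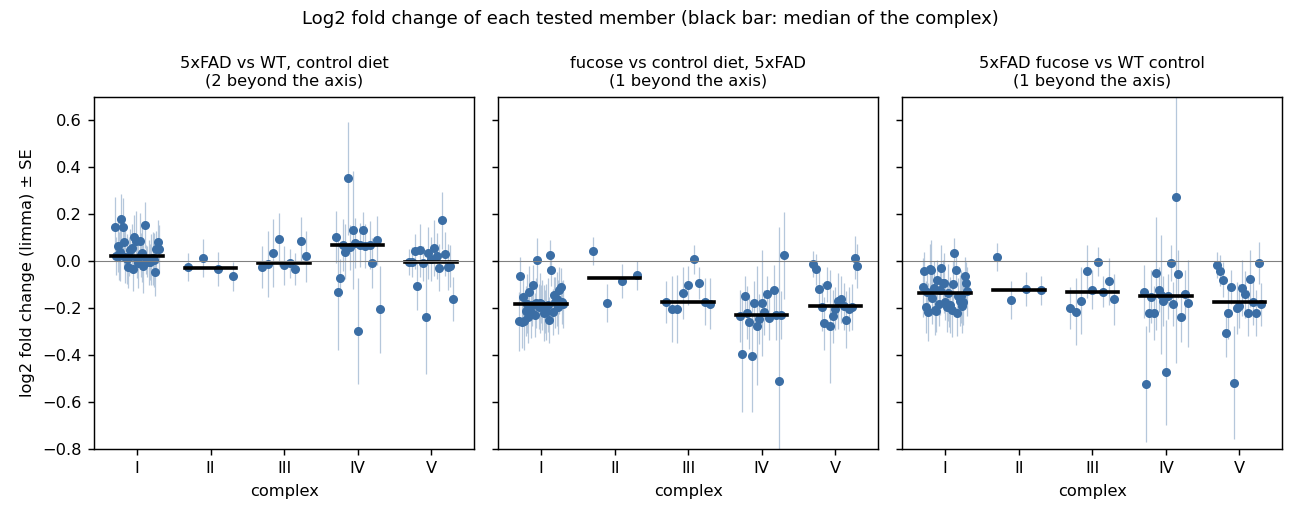
Log2 fold change with SE of each tested subunit gene by complex, in the 3 comparisons (black bar: median of the complex; axis from -0.8 to 0.7, with Cox8b and Cox7b2 beyond it in places). The points lie around 0 for 5xFAD against WT and mostly below 0 for fucose against control diet, where medians run from -0.23 to -0.07; 0 of 84 genes were called in any panel.

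In complex I the gene with the smallest p was Ndufc2, an accessory subunit of the membrane arm at chr7:97400003-97407802 (mm10, plus strand). It had 3914, 4266 and 5266 normalized counts as lowest, median and highest in 5xFAD control and 3091, 3685 and 4216 in 5xFAD fucose. The groups overlapped, 5xFAD fucose 6 was lowest and 5xFAD control 5 highest, and the log2 fold change was -0.25 ± 0.10 with a limma adjusted p of 0.822. WT control lay at 3461, 3748 and 4788, nearer to the fucose group than to 5xFAD control by its median.

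Ndufb10, also of the membrane arm, had 5880, 6114 and 7124 in 5xFAD control and 4551, 5505 and 6212 in 5xFAD fucose, a log2 fold change of -0.23 ± 0.09. Among the subunits that carry electrons, Ndufs3, of the quinone-binding module, had 4156, 4594 and 5577 in 5xFAD control and 3410, 4015 and 4790 in 5xFAD fucose, a difference of -0.22 ± 0.10. Ndufs1, which has a longer transcript, had 3824, 4261 and 4724 in 5xFAD control and 4104, 4235 and 4709 in 5xFAD fucose, a difference of 0.03 ± 0.06.

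Complex II, which oxidises succinate and belongs to the tricarboxylic acid cycle too, held values apart from one another. Sdhb, at chr4:140961203-140979193 (plus strand), whose promoter is printed above, had 5613, 6104 and 7433 normalized counts in 5xFAD control and 4685, 5477 and 6314 in 5xFAD fucose. Its log2 fold change was -0.18 ± 0.08. Sdha, its catalytic partner, had 13286, 13564 and 15174 in 5xFAD control and 13456, 14198 and 15231 in 5xFAD fucose, a difference of 0.04 ± 0.06 with a 95% interval from -0.08 to 0.17. The membrane anchors Sdhc and Sdhd differed by -0.09 ± 0.07 and -0.06 ± 0.06.

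Complex III passes electrons from quinol to cytochrome c. Cyc1, which encodes cytochrome c1, had 8481, 8855 and 10196 in 5xFAD control and 6725, 8082 and 9668 in 5xFAD fucose, a log2 fold change of -0.17 ± 0.09. The Rieske iron-sulfur protein gene Uqcrfs1 differed by -0.10 ± 0.07, and Uqcrh by -0.17 ± 0.10. The core proteins Uqcrc1 and Uqcrc2 were at -0.10 ± 0.08 and 0.01 ± 0.06.

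Complex IV reduces oxygen. Its main isoforms of duplicated subunits all had values below 0 on fucose, from -0.26 to -0.18, and 5 of these 6 had an unadjusted p under 0.05 (2.92% of all tested genes were lower at that level). These 5 are among the 20 genes whose number was 2 without 5xFAD control 5. Cox7b, at chrX:106015700-106022450 (plus strand), had 4934, 5142 and 6368 in 5xFAD control and 3890, 4565 and 5410 in 5xFAD fucose. Its log2 fold change was -0.24 ± 0.09 (limma adjusted p = 0.822), with 5xFAD fucose 6 lowest and 5xFAD control 5 highest, and the groups overlapped.

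Cox6a1, whose promoter holds the full NRF1 letters printed above, had 17228, 18012 and 25273 in 5xFAD control and 13685, 16248 and 18470 in 5xFAD fucose, a difference of -0.26 ± 0.12. Cox4i1, a regulatory subunit, had 21535, 23084 and 32142 in 5xFAD control and 17023, 21844 and 23438 in 5xFAD fucose, a difference of -0.23 ± 0.11. For both genes 5xFAD control 5 stood far above the other libraries of its group. The restricted isoforms Cox4i2, Cox6a2 and Cox8b differed by -0.40 ± 0.25, -0.40 ± 0.24 and -0.51 ± 0.65, and Cox7b2 by 1.34 ± 0.71, on few reads.

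In complex V, Atp5b of the catalytic head had 53615, 58780 and 59683 in 5xFAD control and 47064, 57817 and 61899 in 5xFAD fucose, a log2 fold change of -0.04 ± 0.06, and Atp5a1 differed by -0.01 ± 0.06. Atp5e, the epsilon subunit of the central stalk, had 3132, 3661 and 4938 in 5xFAD control and 2539, 3184 and 3734 in 5xFAD fucose, a difference of -0.27 ± 0.11. The 3 genes of subunit c lay at -0.28 ± 0.24 for Atp5g1, -0.24 ± 0.11 for Atp5g2 and -0.20 ± 0.09 for Atp5g3. The 4 genes of the peripheral stalk, which holds the head in place, ran from -0.20 to -0.10.

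Transcript length ordered these values. Among 37 subunit genes with coding transcripts under 700 bp the median log2 fold change on fucose was -0.21, among 30 genes from 700 to 1500 bp it was -0.19, and among 17 genes of at least 1500 bp it was -0.04. Other tested genes had medians of -0.19, -0.12 and 0.02 in the same classes (390, 2480 and 12567 genes), a grouping made after the values were seen. Spearman's rho between length and log2 fold change was 0.535 across the 84 subunit genes and 0.371 across 15437 other genes. Genes are not independent replicates, and these are descriptions. Among the long ones Atp5g1 was at -0.28; the length used for it, 2675.5 bp, is a median over its annotated coding transcripts.

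For 5xFAD against WT on control diet, rho was -0.459 across the subunit genes and -0.257 across other genes. For 5xFAD fucose against WT control it was 0.17 and 0.0556. These comparisons share libraries with the diet comparison. The part of transcript length in the differences was not tested.

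**Figure D5:**
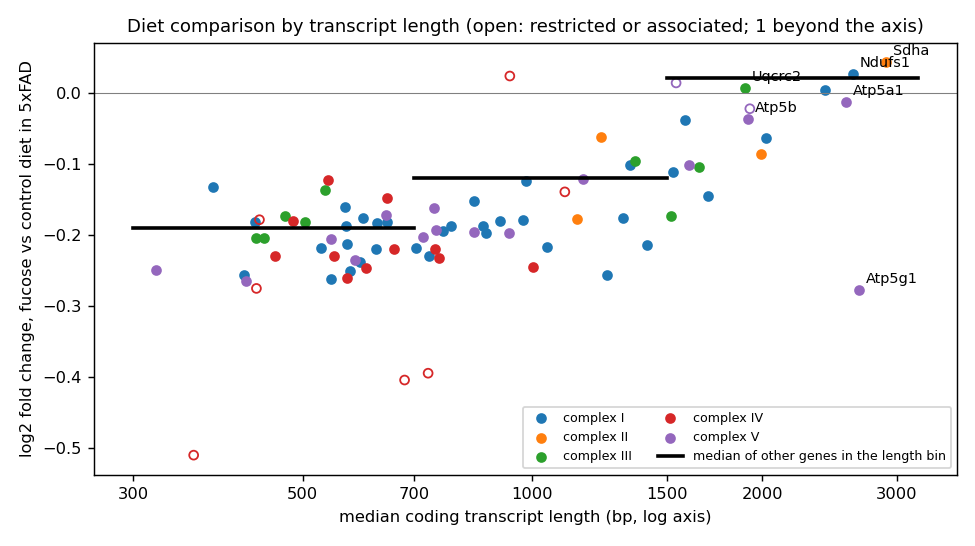
Log2 fold change of fucose against control diet in 5xFAD for each tested subunit gene against the median length of its coding transcripts in bp (log axis), coloured by complex, with open points for restricted or associated genes and Cox7b2 beyond the axis. Black bars are medians of other tested genes under 700 bp, from 700 to 1500 bp and at or above 1500 bp (the last class is open to the right): -0.19, -0.12 and 0.02, beside -0.21, -0.19 and -0.04 for the subunit genes.

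The third comparison sets 5xFAD fucose against WT control, so that genotype and diet differ together and cannot be told apart. 0 of 84 subunit genes were called by limma, where 2% of all tested genes were called. 80 of 84 had a log2 fold change below 0 (52.3% of all tested genes), the median was -0.14 beside -0.01, and 13 were lower with an unadjusted p under 0.05, with 0 higher (4.77% of all tested genes were lower at that level and 6.09% higher). Of the same genes outside the list with a mean of at least 1500, 73.68%, 77.4% and 58.96% were below 0 in the length classes. Subunit genes had 94.59%, 100% and 88.24%. In the shorter classes, 14 of 76 and 101 of 699 were lower at an unadjusted p under 0.05. Among subunit genes these were 4 of 37 and 7 of 30. In 0 of 84 were the groups apart, with all libraries below (0.144% of all tested genes) or above (1.41%). The count of 13 was 2 without WT control 2, 2 without 5xFAD fucose 2 and 3 without WT control 4. It was 3 without 5xFAD fucose 6, 6 without WT control 5 and 6 without 5xFAD fucose 3. It was 20 without WT control 3, 28 without 5xFAD fucose 5 and 34 without WT control 6. Over all tested genes, 898 of 18808 were lower at that level in the main fit. Without WT control 2, 5xFAD fucose 2 and WT control 4 there were 646 of 19073, 695 of 19045 and 769 of 19040. There were 758 of 19016, 716 of 19058 and 731 of 19046 without 5xFAD fucose 6, WT control 5 and 5xFAD fucose 3. Without WT control 3, 5xFAD fucose 5 and WT control 6 there were 988 of 19065, 1253 of 19035 and 1138 of 19024.

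The smallest adjusted p of any subunit gene in the study, 0.183, belonged here to Atp5d, the delta subunit of the central stalk, at chr10:80138632-80145818 (mm10, plus strand). Its normalized counts in WT control libraries 1 to 6 were 11598, 16066, 11382, 14317, 13386 and 10604. In 5xFAD control they were 10851, 11280, 10933, 11157, 14376 and 12844, and in 5xFAD fucose 10826, 9117, 10214, 10733, 12646 and 8855. The fucose libraries overlapped with WT control through libraries 1, 4 and 5, and the log2 fold change was -0.31 ± 0.10. Side by side, the same gene differed by -0.11 ± 0.10 between genotypes on control diet and by -0.20 ± 0.10 between diets.

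Cox5a, a single-gene subunit of complex IV, had 2980, 3299 and 3800 as lowest, median and highest in WT control and 2564, 2824 and 3293 in 5xFAD fucose, a log2 fold change of -0.22 ± 0.08 with a limma adjusted p of 0.264. Atp5g1 had 4988, 6824 and 8403 in WT control and 2711, 5181 and 6856 in 5xFAD fucose, a difference of -0.52 ± 0.24. Atp5o, the subunit that confers sensitivity to oligomycin, differed by -0.22 ± 0.10, and Ndufa8, an accessory subunit of complex I, by -0.21 ± 0.09. All of these groups overlapped.

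A fit that held the mean of the ribosomal protein genes constant called some subunit genes, and it was the only one of 26 alternative fits that did. For 5xFAD against WT on control diet, limma then called Atp5d lower (log2 fold change -0.28 ± 0.06, adjusted p = 0.0129) and Ndufs8, an iron-sulfur subunit of complex I, lower (-0.23 ± 0.06, adjusted p = 0.0264), which is 2 of 84 beside 0.431% of all tested genes. For 5xFAD fucose against WT control it called 8 of 84 lower beside 0.899% of all tested genes: Atp5d, Cox5a, Atp5o, Cox8a, Ndufa8, Cox6a1, Atp5g3 and Cyc1, with log2 fold changes from -0.30 to -0.19 and adjusted p from 0.00254 to 0.0486. For fucose against control diet it called 0, and the median of the 84 genes moved from -0.18 to -0.01. The ribosomal mean itself was 0.20 log2 units higher in 5xFAD control than in WT control. It was 0.20 lower on fucose than on control diet in 5xFAD, and 0.01 lower in 5xFAD fucose than in WT control. This fit thus changes the fold changes of the first 2 comparisons by its construction. In every comparison it also removes spread that ribosomal and subunit genes share, as their scores correlated at r = 0.93 after centring. The calls for 5xFAD fucose against WT control thus depend on the covariate too.

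The rest of the pathway was described with lists of genes. Of 13 subunits encoded by mitochondrial DNA, 13 further nuclear subunits and electron carriers, 44 assembly factors, 17 tricarboxylic acid cycle enzymes and 17 regulators of mitochondrial biogenesis, limma called 0 in each list and each comparison. Of all tested genes, 2.14% were called for genotype, 0% for diet and 2% for 5xFAD fucose against WT control. The mitochondrially encoded subunits had median log2 fold changes of -0.08 for genotype, -0.07 for diet and -0.12 for 5xFAD fucose against WT control. The further subunits and carriers had 0.05, -0.14 and -0.08. Assembly factors, which build the complexes without remaining in them, had -0.05, -0.04 and -0.07, and the cycle enzymes, which supply NADH, had -0.03, -0.01 and -0.03. The regulators had -0.07, -0.03 and -0.04. With an unadjusted p under 0.05, 7 of 44 assembly factors were lower and 0 higher in 5xFAD fucose than in WT control (4.77% and 6.09% of all tested genes), 3 were lower and 1 higher on fucose than on control diet (2.92% and 2.42%), and 2 were lower and 0 higher in 5xFAD control than in WT control (4.72% and 6.72%). For 5xFAD fucose against WT control, Ecsit, an assembly factor of complex I, was at -0.30 (limma adjusted p = 0.106).

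Among the regulators, Ppargc1b, a coactivator of mitochondrial genes, had the smallest p, with log2 fold changes of -0.68 for genotype (limma adjusted p = 0.0943) and 0.64 for diet (limma adjusted p = 0.822). Ppargc1a, its better known relative, had -0.35 for 5xFAD fucose against WT control (limma adjusted p = 0.169). Within the mitochondrially encoded list mt-Co3, a subunit of complex IV, had -0.72 for diet (limma adjusted p = 0.822). None of these passed the test.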

How the data were processed

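The authors deposited 1 table of normalized counts, a signal made by dividing the counts of each library by 1 size factor, in 1 column per library. Per the submitters' processing notes, the build was mm10 and the tools included HISAT2 2.2.1 and Trimmomatic 0.39, as well as DESeq2 2.11.40.8 and featureCounts 2.0.3. No label or header used here gives the annotation or the strandedness of counting. All values were whole multiples of the smallest value of their column (100% within 0.001 reads), so reads were recovered, 31.45 to 44.23 M per library; intervals and limits for 0 cover counting error only.

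limma 3.58.1 was fitted in R 4.3.3 on log2(normalized count + 1), with trend and robust moderation, in 1 fit of the 18 libraries in 3 groups of 6. A filter on recovered reads (filterByExpr, edgeR 4.0.16, minimum count 10) left 18808 genes, and p-values were adjusted by Benjamini-Hochberg over all of them at a false discovery rate of 0.05. Errors of fold changes are limma standard errors. The fit was also run on simulated counts, drawn independently for each gene. That run cannot show how counts at an unadjusted p behave in genes that vary together. Alternatives were edgeR, DESeq2 1.42.0, limma voom, other filters, pseudocounts and scalings, a ribosomal covariate, a block for replicate numbers and leaving out libraries. The lowest chi-square per degree of freedom between replicates was 15.95, so no 2 libraries were counted as 1.

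Members and lists were chosen with earlier results of these data known. Genes named are those of a fixed rule: called members, the 2 smallest p-values by complex and comparison, catalytic or redox subunits, isoform families, extremes per length, genes with a library set apart from its group, the 5 genes outside the list most like it, and the genes of each pathway list that were called or had the smallest p. Ndufa1, Ndufa3, Uqcrc2 and Atp5j were chosen after their values were seen, as were the coding transcript lengths (GENCODE M21), the length classes and the promoters printed. The ribosomal list holds genes named Rpl or Rps with a number, without pseudogenes, relatives and Rps19bp1. Exon bases are shared with another gene in 29 of the 85 genes (26 on the opposite strand), over 20% of them in 2: Ndufb6 with Smim27 (39%) and Ndufa13 with Tssk6 (29.98%). Coordinates are 1-based mm10. Values of 1 gene named by the rule are not reported here.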

Additional observations from a re-analysis of the deposited data

Results flagged for a closer look

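In groups of 6 libraries, a library was marked where its gap to the nearest other library was, as a share of the range of the group, above Dixon's 95% critical value. This marked 14 of 177 sets of 6 values, from 53 named genes and the scores of all subunit genes and of each complex, and chance marks about 1 in 20. Since the genes vary together, the marks are not independent.

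5xFAD control 5 was the highest of its group in 10 of them. Cox4i1 had 32142 normalized counts there, where the other 5 libraries lay between 21535 and 23995. Cox6a1 had 25273 (others 17228 to 19309), Cox6c 12639 (8800 to 10105), Atp5c1 11215 (8764 to 9661) and Ndufb9 9754 (6281 to 7306). Ndufv2 had 8540 (6273 to 6914), Uqcrh 8443 (5956 to 6845), Ndufs7 7723 (5359 to 5989), Cox5a 3681 (2862 to 3125) and Cox7a1 104 (48.6 to 65.2). This library also had little Xist and the largest share of ribosomal protein reads, 2.22%, where the other 17 had 1.29% to 1.87%; the part of either in the subunit values was not tested.

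In 5xFAD control 4, Atp5b was low at 53615 (others 57860 to 59683). In WT control, Atp5k was low in library 6 at 1039 (others 1440 to 1664), Cox8b was high in library 3 at 143 (others 3.94 to 50.2) and Ndufa4l2 was high in library 4 at 339 (others 156 to 222).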

How the results depend on the processing

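Across 26 alternatives in each comparison, the number of subunit genes called was 0 except with the ribosomal protein mean as a covariate. That fit called 2 lower for 5xFAD control against WT control (0.431% of all tested genes). It called 8 lower for 5xFAD fucose against WT control (0.899%). It moved the median for diet to -0.0138 and that for genotype to -0.13 on the log2 scale. For genotype, 76 of 84 subunit genes were then below 0, beside 50.8% of all tested genes. 41 of them were lower at an unadjusted p under 0.05, beside 1177 of 18808 tested genes. Leaving out 1 library at a time called 0 in each comparison. The median log2 fold change then ranged from -0.03 to 0.06 for genotype, from -0.23 to -0.12 for diet and from -0.19 to -0.11 for 5xFAD fucose against WT control. Without the 3 libraries with little Xist the medians were -0.01, -0.16 and -0.15. Unadjusted p-values under 0.05 with a lower level numbered 21 for diet and 14 for 5xFAD fucose against WT control with DESeq2, 24 and 9 with edgeR and TMM, 22 and 12 with edgeR and RLE, and 25 and 11 with limma voom, beside 20 and 13. They numbered 8 and 8 with limma without trend and robust moderation, 11 and 18 without the 3 libraries with little Xist and 0 and 52 with the ribosomal covariate. Of 18808 tested genes, 566 and 983 were lower at that level with DESeq2 and 568 and 794 with edgeR and TMM. There were 526 and 911 with edgeR and RLE and 626 and 774 with limma voom, beside 549 and 898. There were 516 and 784 without trend and robust moderation and 262 and 1356 with the ribosomal covariate. Without the 3 libraries with little Xist there were 479 and 1098 of 18851. For genotype DESeq2, edgeR and limma voom gave 0 subunit genes lower, and limma voom gave 1 higher. Of 18808 tested genes, these fits gave 717 to 998 lower for genotype, and limma voom gave 1364 higher. In the 100 bases before the start, 18.2% of subunit promoters held a motif, against 5.47% of other genes and 9.34% of the other genes tested here; for ETS forms alone the shares were 6.06%, 2.97% and 5.31%. The window is shorter by construction. The number of libraries and the spread between them limit the precision: the 95% interval for diet lay within 1.5-fold in 77 of 84 genes.

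With a replicate block, 0 subunit genes were called in each comparison, and their medians stayed at 0.02, -0.18 and -0.14. Of the subunit genes, 0, 32 and 17 were lower with an unadjusted p under 0.05, beside 1025, 696 and 1052 of 18808 tested genes. The libraries share only a number: same-numbered libraries correlated from -0.17 to 0.33 in their deviations from group means, and not every library correlated best with its own number.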
